A study of Mus musculus with 30 samples.

Results

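The genes described here are 9 transcription factors of the STAT and IRF families, *Stat2*, *Stat3*, *Stat5a*, *Stat6*, *Irf1*, *Irf5*, *Irf7*, *Irf8* and *Irf9*. They were chosen by gene name among the protein-coding entries of the deposited annotation and joined by gene identifier to the expression table. They are 9 of 17889 protein-coding genes and of 30952 genes in all, and all 9 were found and entered every test. Microglia (CD11b+CD45intCX3CR1+) and astrocytes (GLAST+CD11b-CD45-CD140a-) were sorted from the spinal cords of female C57BL/6 mice, and their mRNA was sequenced after oligo(dT) capture and PCR amplification. For each cell type there were 4 libraries from naive mice and 11 from mice immunized with a MOG peptide, which develop experimental autoimmune encephalomyelitis (EAE), an induced autoimmune disease of the CNS. From a clinical score of around 1, the mice with EAE were dosed by oral gavage BID for 3 days, with vehicle (20% Captisol, a modified cyclodextrin; 6 libraries per cell type) or with the RIPK1 kinase inhibitor RIPK1inh-1 at 50 mg/kg (5 libraries). All groups share strain and sex, the labels give no age, and no naive group received vehicle or RIPK1inh-1. In the study's EAE protocol the peptide was given in complete Freund's adjuvant, with pertussis toxin, and no such treatment of naive mice is described. Differences from naive therefore cannot be divided between the disease and these agents.

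STAT proteins are latent transcription factors that JAK kinases phosphorylate at cytokine receptors, after which they enter the nucleus. Type I interferon assembles a complex that holds STAT2 and IRF9 and binds interferon-stimulated response elements, type II interferon acts through gamma-activated sequences, and STAT3, STAT5A and STAT6 serve cytokines such as IL-6, the common gamma chain cytokines and IL-4. IRF7 drives type I interferon genes and is itself induced by interferon, IRF1 is an early target of type II interferon, IRF5 acts below Toll-like receptors, and IRF8 is a lineage factor of microglia and other myeloid cells. Type II interferon comes chiefly from lymphocytes, and microglia and astrocytes both carry its receptor.

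Expression was deposited as log2 FPKM, a fragment count divided by exon length and library total, so that levels of different genes can be set side by side per length. The values were quantile-normalized over all 30 libraries and run from 0 to 15.34. The genes with signal numbered 8710 to 20398 in a microglial library and 6728 to 22980 in an astrocyte library. A gene without signal carries a value that the normalization assigned, up to 1.74 in microglia and up to 2.74 in astrocytes. There were 3 libraries that held under 9000 genes with signal, naive microglia 4, naive astrocytes 2 and EAE-vehicle astrocytes 1. Some of the results that rest on them are also given without them, a choice made after seeing the data. Where no such value is given, the result includes these libraries. Pairs of libraries from the same group correlated at 0.808 to 0.976 (Pearson r) in microglia, and at 0.569 to 0.883 in astrocytes. The labelled cell types were checked against markers. *P2ry12* was at 7.63 to 13.12 in microglial and at 0 to 4.09 in astrocyte libraries, and *Aqp4* was at 0 to 0.98 in microglial and at 7.55 to 10.13 in astrocyte libraries. *Slc1a3*, which encodes GLAST, the antigen of the astrocyte sort, was at 5.07 to 6.32 in microglial libraries and overlapped the 4.11 to 7.61 of astrocytes. In astrocytes, the mean log2 FPKM over 7 oligodendrocyte markers was 5.98 in naive, 8.36 in EAE-vehicle and 8.05 in RIPK1inh-1 libraries. Beside it, 8 astrocyte markers had means of 9.63, 8.36 and 9.02, and 6 neuronal markers had 4.76, 5.52 and 4.78. Fewer cells of a type and less RNA per cell cannot be told apart in such bulk libraries.

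On GRCm38 the genes lie on 6 chromosomes, *Stat2* at chr10:128270559-128292849, *Stat6* at chr10:127642986-127660957, *Stat3* at chr11:100885098-100939540, *Stat5a* at chr11:100859351-100885169, *Irf1* at chr11:53770014-53778374, *Irf5* at chr6:29526625-29541871, *Irf7* at chr7:141262706-141266481, *Irf8* at chr8:120736358-120756694 and *Irf9* at chr14:55603571-55610030. *Stat3* and *Stat5a* are neighbours on opposite strands whose exons share 72 bases. The exons of *Irf5* share 411 bases with *Tnpo3*, those of *Irf1* 135 bases with *Gm17334*, those of *Irf7* 45 bases with *Phrf1* and those of *Stat6* 40 bases with *Nab2*, all on the opposite strand, while *Irf9* shares 123 bases with *Rnf31* on its own strand. The library protocol does not mark strand, so reads of these stretches cannot be told apart from reads of the partner gene. The deposited annotation marks 8 of the 9 genes, all but *Stat2*, as confounded with another gene. It marks 15717 of all 30952 genes in this way. *Irf8* is marked although no overlap of its exons with those of another gene was found.

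The upstream stretches of 3 genes are shown because these genes were higher in EAE in at least one cell type and hold a motif that a STAT or IRF complex is known to bind. Among them *Irf8* was higher in astrocytes and lower in microglia. The RefSeq promoter windows (GRCm38.p6, 300 bases, 250 before the transcript start and 50 after it) covered all 9 genes in 13 windows. They were searched on both strands for TTCNNTTTC, the core of the interferon-stimulated response element, and for TTCNNNGAA, the gamma-activated sequence, with TTCCNGGAA as its tighter form, which lies within TTCNNNGAA. Matches are in capitals, and each stretch ends before the transcript start. *Stat2* (chr10:128270248-128270330, plus strand) holds TTCNNTTTC 221 bases before the start, *Irf1* (chr11:53769879-53769977, plus strand) holds TTCNNNGAA 90 bases before it, and *Irf8* (chr8:120736142-120736258, plus strand) holds TTCNNNGAA at 171 and again at 153 bases before it.
Stat2: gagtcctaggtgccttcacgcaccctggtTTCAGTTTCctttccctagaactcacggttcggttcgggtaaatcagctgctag
Irf1: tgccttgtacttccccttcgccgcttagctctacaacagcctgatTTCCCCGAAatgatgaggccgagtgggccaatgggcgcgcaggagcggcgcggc
Irf8: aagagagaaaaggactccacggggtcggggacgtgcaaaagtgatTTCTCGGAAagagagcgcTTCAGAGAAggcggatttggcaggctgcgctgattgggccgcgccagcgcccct
Among all 32851 promoter windows of this length, 8.56% hold TTCNNTTTC, 8.30% hold TTCNNNGAA and 1.15% hold TTCCNGGAA. A match was found in 3 of the 13 windows of the 9 genes, and a further window each of *Irf1* and *Irf8* held none. No window of the other 6 genes held any of the motifs, and no window of the 9 genes held TTCCNGGAA. A match describes the letters of these windows and is neither a measured binding site nor a cause of the expression values.

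In microglia, *Irf7* and *Irf1* were higher in EAE-vehicle than in naive mice by 7.45-fold and 5.19-fold, *Stat2* was 2.55-fold higher, and the myeloid factors *Irf5* and *Irf8* were lower. Genes count as called where limma gave an unadjusted p under 0.05 together with a change of more than 1.5-fold up or down, which is the study's own cutoff, and adjusted p-values are Benjamini-Hochberg values over all genes tested. Of the 9 genes, 3 were called higher, against 6.13% of the 28958 genes tested in microglia, and 2 were called lower, against 5.86%. By an adjusted p under 0.05, *Irf1* and *Irf7* were higher, against 2.37% of all genes. The median log2 fold change of the 9 genes was -0.36, and that of all genes tested was -0.02. All genes tested, here and in each later comparison, include many with little or no signal. A microglial library held signal of 8710 to 20398 of the 30952 genes. With genes averaging under 1 left out, 3017 genes were called in place of 3473. The share called among genes with signal is not given, so these shares and medians do not measure an excess of the 9 genes.

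*Irf7*, the interferon-induced amplifier of type I interferon, was at 3.03, 4.16, 3.60 and 2.26 log2 FPKM in the 4 naive microglial libraries. In EAE-vehicle microglia the lowest, median and highest of 6 values were 5.34, 6.17 and 7.02, and with RIPK1inh-1 the 5 values were 5.35, 5.56, 6.03, 7.32 and 6.91. Both EAE groups lay wholly above the naive group. The log2 fold change in EAE-vehicle was 2.90 (SE 0.46, limma adjusted p = 0.00164; exact permutation test, two-sided, p = 0.00476, the smallest that 210 splits of 4 and 6 libraries allow). With RIPK1inh-1 against naive it was 2.97 (SE 0.48, limma adjusted p = 0.00258), and against EAE-vehicle it was 0.07 with a 95% interval of -0.85 to 0.99.

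*Irf1*, an early target of type II interferon that acts on antigen presentation genes, was at 4.70, 4.81, 6.30 and 2.09 in naive microglia. It ran from 6.36 over a median of 6.92 to 7.22 in EAE-vehicle and was at 6.96, 6.24, 7.47, 8.56 and 7.47 with RIPK1inh-1. No EAE-vehicle value fell below the highest naive value, naive library 3 came close to the lowest, and naive library 4, which has 8710 genes with signal, was the lowest of all. Among the RIPK1inh-1 values 1, 6.24, lay just below the highest naive value. The log2 fold change was 2.38 (SE 0.62, limma adjusted p = 0.0454; exact permutation p = 0.00476, two-sided). Without naive microglia 4 it was 1.58, with an adjusted p of 0.0686.

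*Stat2*, the STAT of the type I interferon complex, was at 2.15, 3.72, 5.37 and 5.14 in naive microglia and between 4.93 and 5.66 (median 5.56) in EAE-vehicle. The 2 lower naive libraries lay below every EAE-vehicle value and the other 2 lay among them. The log2 fold change was 1.35 (SE 0.56, limma adjusted p = 0.279; exact permutation p = 0.0238, two-sided), and without naive library 1 it was 0.70 and no longer called. *Irf9*, the partner of STAT2 in that complex, was at 5.60 ± 1.02 (SD, n = 4) in naive, 5.81 ± 0.17 (n = 6) in EAE-vehicle and 5.83 ± 0.36 (n = 5) in RIPK1inh-1 microglia, and its log2 fold change in EAE was 0.21 with a 95% interval of -0.55 to 0.96.

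*Irf8* was the highest of the 9 genes in microglia of all 3 groups. Its naive values were 7.24, 8.02, 8.12 and 7.96, and in EAE-vehicle it ran from 6.78 over 7.02 to 7.40. Of the naive libraries 1 lay within the EAE-vehicle range and 3 lay above it. The difference was -0.76 on the log2 scale (SE 0.33, limma adjusted p = 0.314; exact permutation p = 0.0143, two-sided), a ratio of 0.590. *Irf5*, which acts below Toll-like receptors, was at 6.02, 7.12, 8.29 and 5.95 in naive microglia and at 5.29 to 6.12 (median 5.46) in EAE-vehicle, with 2 naive libraries above that range. Its difference was -1.28 (SE 0.59, limma adjusted p = 0.360; exact permutation p = 0.0143, two-sided), a ratio of 0.412. Both calls are near the cutoff: leaving out single libraries took the call from *Irf5* in 8 of 15 fits and from *Irf8* in 6 of 15, with differences of -0.80 for *Irf5* without naive library 3 and of -0.67 for *Irf8* without it. Without naive library 4, the microglial library of under 9000 genes with signal, *Irf8* was at -0.72 and not called.

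The list of 10 microglial markers moved in the same comparison. Its summed level was 102.0 to 109.0 in naive, 80.4 to 85.6 in EAE-vehicle and 80.9 to 95.9 in RIPK1inh-1 microglia. Of its 10 genes 8 were called lower and 1 higher in EAE-vehicle, against 5.86% and 6.13% of all genes tested. Of 9 monocyte and neutrophil markers, 3 were called higher, and their summed level was 17.3 to 53.2 in naive, 27.7 to 59.4 in EAE-vehicle and 21.8 to 66.4 in RIPK1inh-1 microglia. Among the defining markers, *Ccr2* had no signal in any naive microglial library and *Ly6c2* had signal in 1 of 4, while *S100a8* was at 7.27 to 13.0 there. The part of these cells in the levels of *Irf1*, *Irf5*, *Irf7*, *Irf8* and *Stat2* was not tested.

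The remaining STAT genes were not called in EAE microglia. *Stat3*, the IL-6 family factor, was at 5.52 ± 0.73 (SD, n = 4) in naive and 5.16 ± 0.38 (n = 6) in EAE-vehicle microglia, *Stat6*, the IL-4 and IL-13 factor, at 4.94 ± 1.71 and 4.24 ± 0.49, and *Stat5a* at 2.42 ± 0.82 and 2.02 ± 0.24. Their log2 differences had 95% intervals of -1.33 to 0.60, -2.15 to 0.75 and -1.13 to 0.32.

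**Figure D1:**
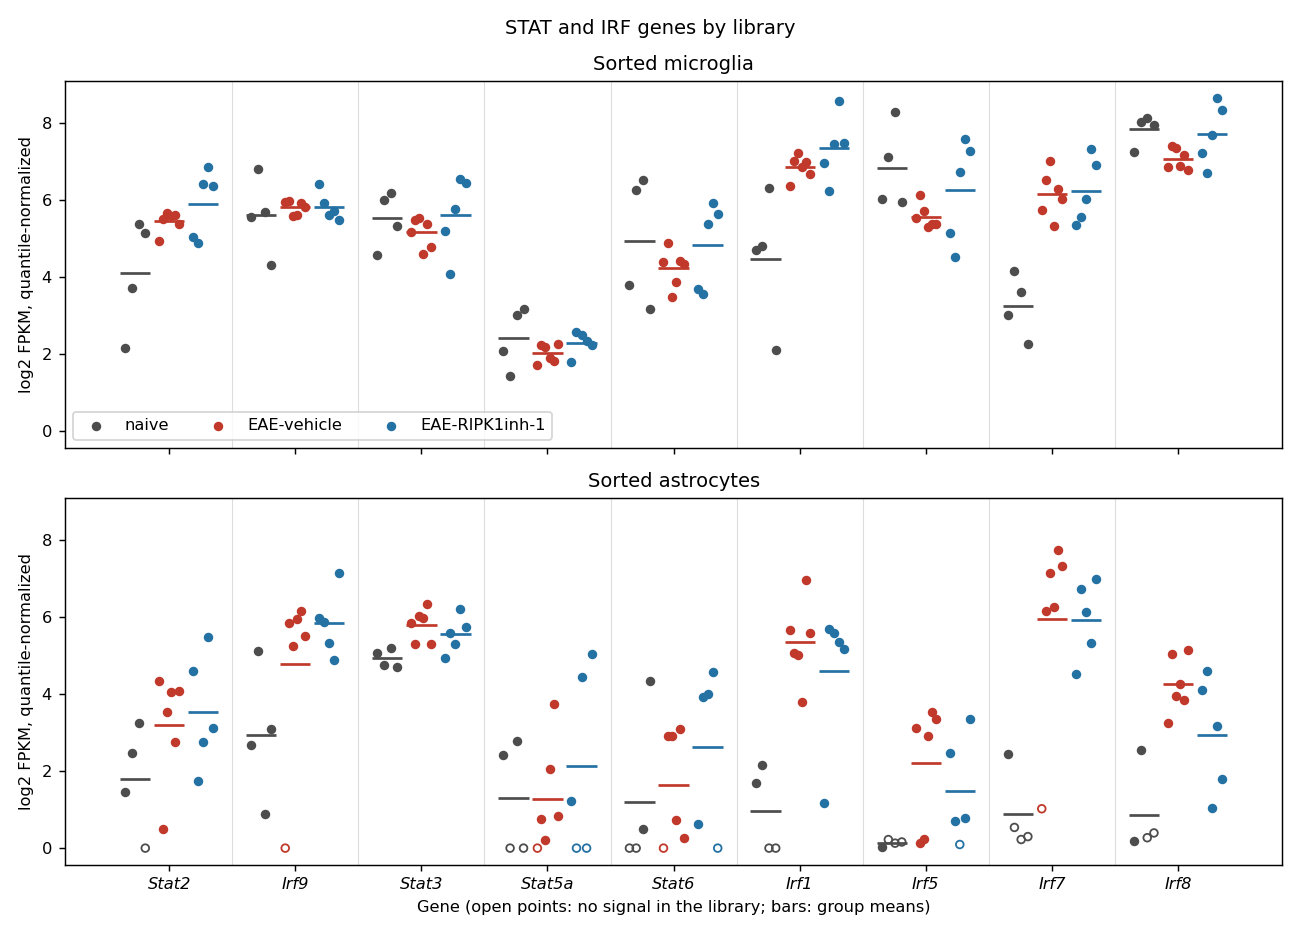
Quantile-normalized log2 FPKM (vertical axis) of the 9 genes in each library of sorted microglia (upper panel) and astrocytes (lower panel), in naive (grey), EAE-vehicle (red) and EAE-RIPK1inh-1 (blue) mice. Each point is a library, open points are libraries without signal of the gene, and bars are group means. *Irf7* in microglia is at most 4.16 in the naive group and at least 5.34 in the EAE groups, and in naive astrocytes only *Stat3* and *Irf9* have signal in all 4 libraries.

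In astrocytes, *Irf1*, *Irf7* and *Irf8* went from little or no signal in naive mice to clear signal in EAE-vehicle, and *Stat3* and *Irf5* were also higher. All 5 genes called in this comparison were higher, against 2.69% of the 30718 genes tested in astrocytes. By an adjusted p under 0.05, *Irf1* and *Irf7* were higher, against 0.342% of all genes. The median log2 fold change of the 9 genes was 1.84 and that of all genes tested 0.03. Since naive libraries often gave no signal of these genes, the differences below are differences of deposited log2 values, and no fold is drawn from them for *Irf1*, *Irf5*, *Irf7* and *Irf8*.

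*Irf1* was at 1.70 and 2.16 in naive astrocytes 1 and 2 and at 0 without signal in naive astrocytes 3 and 4. In EAE-vehicle the 6 values had a lowest of 3.81, a median of 5.32 and a highest of 6.95, all above the naive group. The difference of log2 values was 4.38 (SE 0.87, limma adjusted p = 0.0368; exact permutation p = 0.00476, two-sided), and without the libraries of under 9000 genes with signal it was 4.72, with an adjusted p of 0.0657. With RIPK1inh-1, *Irf1* was at 1.17 in library 1 and at 5.70, 5.58, 5.36 and 5.17 in the other 4, so that only library 1 lay within the naive range.

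*Irf7* had signal in 1 of 4 naive astrocyte libraries, at 2.44, and the other 3 were at 0.54, 0.22 and 0.30 without signal. In EAE-vehicle it was at 1.02 without signal in library 1, the library with 6728 genes with signal, and at 6.17, 7.14, 6.26, 7.74 and 7.32 in the other 5. The difference was 5.07 (SE 1.07, limma adjusted p = 0.0479; exact permutation p = 0.0190, two-sided). Without the libraries of under 9000 genes with signal it was 5.94, with an adjusted p of 0.00106. With RIPK1inh-1 the 5 values were 4.51, 6.73, 6.12, 5.34 and 6.98, all above the naive values.

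*Irf8*, the myeloid lineage factor, was at 0.19 and 2.56 in naive astrocytes 1 and 2 and at 0.27 and 0.39 without signal in naive astrocytes 3 and 4. In EAE-vehicle it ran from 3.25 over 4.10 to 5.14, all above the naive group. The difference was 3.40 (SE 0.75, limma adjusted p = 0.0586; exact permutation p = 0.00476, two-sided), and without the libraries of under 9000 genes with signal it was 4.16, with an adjusted p of 0.0276. *Irf5* was at 0.02 to 0.22 in naive astrocytes, with signal in 1 of 4, and at 3.12, 0.14, 0.24, 2.90, 3.53 and 3.36 in EAE-vehicle. Of the EAE-vehicle libraries 4 lay well above the naive group, library 3 lay just above its highest value, and library 2 lay within it. Its difference was 2.08 (SE 0.83, limma adjusted p = 0.537; exact permutation p = 0.0238, two-sided). The call was lost without the libraries of under 9000 genes with signal, at 1.93, and without EAE-vehicle astrocytes 5 or 6, at 1.82 and 1.85.

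*Stat3* had signal in all 15 astrocyte libraries. It was at 5.07, 4.76, 5.19 and 4.69 in naive astrocytes and ran from 5.30 over 5.92 to 6.33 in EAE-vehicle, and the groups did not overlap. The log2 fold change was 0.87 (SE 0.34, limma adjusted p = 0.521; exact permutation p = 0.00952, two-sided), which is 1.83-fold, and without the libraries of under 9000 genes with signal it was 0.81 and no longer called.

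*Irf9* was at 2.69, 5.11, 0.88 and 3.10 in naive astrocytes, at 0 without signal in EAE-vehicle astrocytes 1, and at 5.84, 5.24, 5.95, 6.15 and 5.51 in the other EAE-vehicle libraries. Its difference of 1.84 (SE 1.09, limma adjusted p = 0.834) was not called with all libraries. Without EAE-vehicle astrocytes 1 it was 2.79 and called, and without both astrocyte libraries of under 9000 genes with signal it was 3.52, with an adjusted p of 0.0138. *Stat2* was at 0 to 3.25 in naive and at 0.51 to 4.33 in EAE-vehicle astrocytes, a difference of 1.41 with a 95% interval of -0.52 to 3.34. *Stat5a* and *Stat6* had signal in 10 and 11 of 15 astrocyte libraries, and their differences of -0.04 and 0.44 had intervals wider than 4 log2 units.

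Markers of other cells also differed between these astrocyte libraries. Over all genes tested, 2.69% were called higher in EAE-vehicle than in naive astrocytes, and 1233 of 30718 genes were called lower. Of 9 T cell markers 7 were called higher in EAE-vehicle, and their summed level was 3.07 to 11.4 in naive, 12.7 to 54.1 in EAE-vehicle and 12.5 to 51.5 in RIPK1inh-1 astrocytes. Of 9 monocyte and neutrophil markers, 8 were tested and 5 were called higher, and their summed level was 1.21 to 11.8 in naive, 15.1 to 41.9 in EAE-vehicle and 13.5 to 45.1 in RIPK1inh-1 astrocytes. Of 10 microglial markers 3 were called higher, with summed levels of 8.96 to 22.2, 16.9 to 36.9 and 21.3 to 29.0. *Cd3d* had no signal in any naive astrocyte library and had signal in 6 of 6 EAE-vehicle libraries. The EAE-vehicle library with the lowest mean of the T cell list, 1.41 in library 4, also had the lowest *Irf1* of its group, 3.81, and the library with the highest, 6.01 in library 5, had the highest *Irf1*, 6.95, and the highest *Irf7*, 7.74, while the highest *Irf8*, 5.14, was in library 6. In RIPK1inh-1 astrocytes, library 1 had the lowest mean of the T cell list, 1.39, and the lowest *Irf1*, 1.17, but library 3, with the highest mean, 5.72, had the lowest *Irf8*, 1.03, and the highest *Irf1*, 5.70, was in library 2, between them in the T cell mean. Of 5 markers of B cells and plasmacytoid dendritic cells 1 was called higher (*Bst2*, which is also an interferon-stimulated target), of 7 of oligodendrocytes 4, of 6 of neurons 1, of 6 of endothelial cells 0, and of 8 astrocyte markers 5 were called lower and 1 higher. The part of these cells in the levels of the STAT and IRF genes was not tested.

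**Figure D2:**
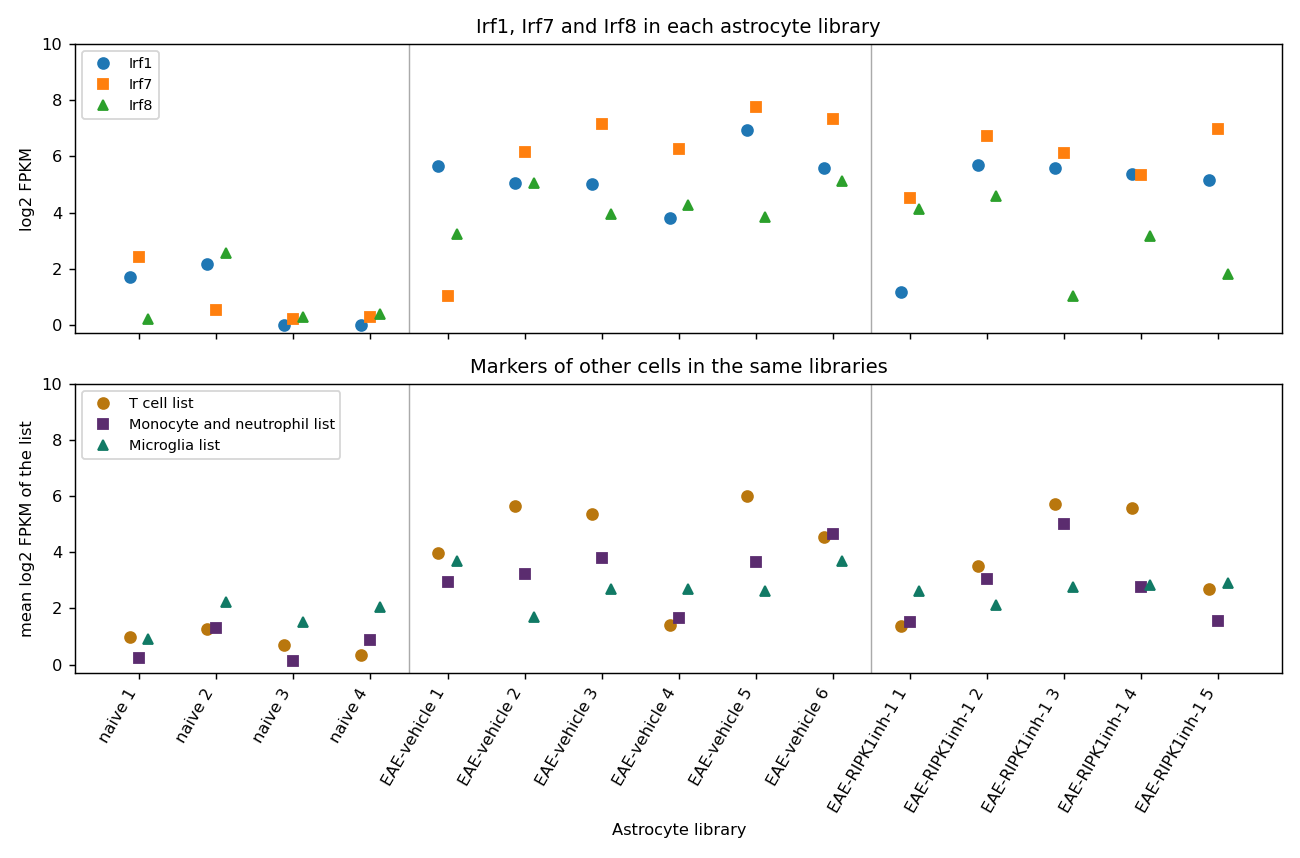
Upper panel, log2 FPKM of *Irf1*, *Irf7* and *Irf8* in the 15 astrocyte libraries. Lower panel, mean log2 FPKM of the T cell, monocyte and neutrophil, and microglia marker lists in the same libraries, with vertical lines between the naive, EAE-vehicle and EAE-RIPK1inh-1 groups. In EAE-vehicle the T cell mean runs from 1.41 to 6.01, with *Irf1* lowest and highest in the same 2 libraries, and *Irf7* is at 1.02 without signal in EAE-vehicle library 1.

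RIPK1inh-1 was compared with vehicle to ask which genes of EAE mice respond to inhibition of RIPK1 kinase. None of the 9 genes was called in either cell type, against 1.76% of all genes in microglia and 3.02% in astrocytes called in either direction. Without RIPK1inh-1 microglia 2 the count of all genes called in microglia was 953 in place of 511. At an adjusted p under 0.05, again none of them passed, against 0.00345% (1 gene) in microglia and 0% in astrocytes, and none of the 9 had an unadjusted limma p under 0.05. The treated and vehicle groups overlapped for all 9 genes in both cell types, and exact permutation p-values ran from 0.104 to 0.944 for microglia and from 0.0974 to 1 for astrocytes. The share of all genes whose groups overlap is not given here, so the overlap sets these genes apart from no others. With these group sizes 462 splits allow a smallest p of 0.00216.

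The smallest limma p in both cell types was that of *Irf8*, in opposite directions. In microglia its values with RIPK1inh-1 were 7.22, 6.69, 7.70, 8.66 and 8.34, against 6.78 to 7.40 with vehicle, so that libraries 3 to 5 lay above the vehicle range and library 2 below it. The difference was 0.65 (95% interval -0.02 to 1.32, limma adjusted p = 0.930; exact permutation p = 0.104, two-sided). In astrocytes the values were 4.12, 4.60, 1.03, 3.18 and 1.80, against 3.25 to 5.14 with vehicle, with 3 libraries below the vehicle range. The difference was -1.31 (95% interval -2.80 to 0.18, limma adjusted p = 0.840; exact permutation p = 0.0974, two-sided). The effect of RIPK1inh-1 on *Irf8* was 1.95 log2 units higher in microglia than in astrocytes in the interaction term of 1 model of all 30 libraries (SE 0.75, limma adjusted p = 0.948), and this was the 1 gene of the 9 called for that term, against 1.49% of all genes in that direction. By adjusted p the interaction was called for 0% of all genes.

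In microglia, RIPK1inh-1 libraries 3 to 5 were above libraries 1 and 2 in *Stat2* (6.41, 6.86 and 6.38 against 5.03 and 4.88), *Irf5* (6.74, 7.58 and 7.28 against 5.15 and 4.53), *Stat6* (5.38, 5.91 and 5.63 against 3.69 and 3.57) and *Stat3* (5.76, 6.55 and 6.45 against 5.21 and 4.07). The values of *Irf1*, *Irf7* and *Irf8* given above divided in the same way. In *Irf9* libraries 3 to 5 were below libraries 1 and 2 (5.62, 5.71 and 5.47 against 6.41 and 5.92), and in *Stat5a* the libraries did not divide in this way. All 9 genes had a positive log2 difference from vehicle in microglia, with a median of 0.46, against -0.02 over all genes tested, but those of *Irf7* (0.07, SE 0.43) and *Irf9* (0.02, SE 0.33) were close to 0 and each changed sign in 4 of 15 fits that left out a single library. The share of all genes with a positive difference is not given, and the signs of the 9 genes come from the same libraries. Without library 2 of this group, *Irf8*, *Irf5* and *Stat3* were called, at 0.91, 1.12 and 0.83, and with a quality weight for each library *Irf8*, *Irf5*, *Stat6*, *Stat3* and *Irf1* were called higher. These weights raised the calls over the whole table as well, to 1494 of 28958 genes called higher in place of 308. By adjusted p 103 genes passed with the weights, and none of them was among the 9. Of 10 microglial markers 2 were called higher with RIPK1inh-1 in microglia, against 308 of 28958 genes tested. The summed T cell list was 0.883 to 20.0, against 2.03 to 7.75 with vehicle. In astrocytes 4 of the 9 differences were positive, and *Irf8* was called lower without RIPK1inh-1 library 1, at -1.60, without RIPK1inh-1 library 2, at -1.72, and without the libraries of under 9000 genes with signal, at -1.50. Over all genes tested in astrocytes, 3.02% were called in either direction. Of the marker lists in RIPK1inh-1 astrocytes, 2 of 8 astrocyte genes were called higher, 1 of 6 neuronal genes lower, and none of 9 T cell, 10 microglial and 8 monocyte and neutrophil genes. The part of these cells in the *Irf8* values was not tested.

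Against naive mice, which share their libraries with the comparison of EAE-vehicle, the RIPK1inh-1 microglia had *Stat2*, *Irf1* and *Irf7* called higher, against 5.35% of all genes, with *Irf1* and *Irf7* also past an adjusted p of 0.05, against 1.81%. Their log2 fold changes were 1.82, 2.86 and 2.97, beside 1.35, 2.38 and 2.90 in EAE-vehicle. The two-sided exact permutation p was 0.0794 for *Stat2*, whose groups overlapped, 0.0159 for *Irf1* and 0.00794 for *Irf7*. *Irf5* and *Irf8* were not called, at -0.59 (95% interval -1.90 to 0.72) and -0.11 (-0.85 to 0.63). In astrocytes *Irf1*, *Irf7*, *Irf8* and *Irf9* were called higher, against 1.98% of all genes, and none passed an adjusted p of 0.05, against 0.130% in either direction. The differences were 3.63, 5.06, 2.09 and 2.90, beside 4.38, 5.07, 3.40 and 1.84 in EAE-vehicle. Here the two-sided exact permutation p was 0.0317, 0.00794, 0.0635 and 0.0159, and the groups overlapped for all but *Irf7*. The share of all genes whose groups overlap is not given for these comparisons either, so the overlap sets no gene apart.

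**Figure D3:**
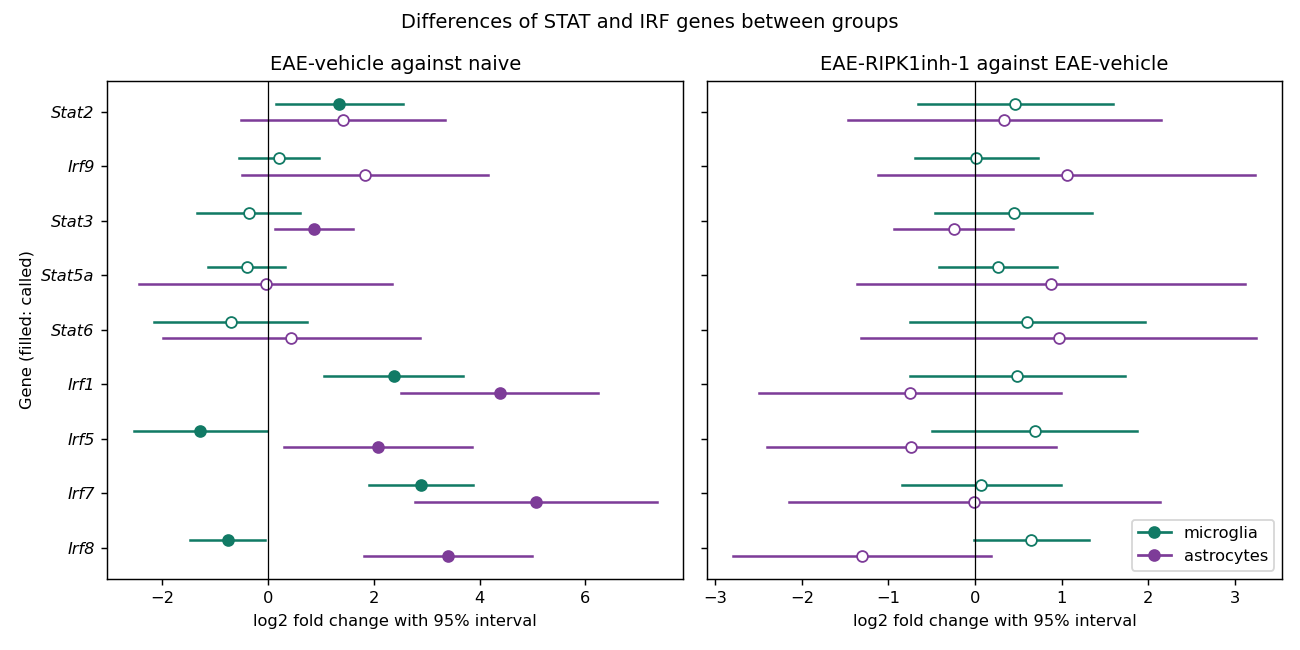
log2 fold change (horizontal axis) with its 95% interval from limma for each of the 9 genes in microglia (green) and astrocytes (purple), for EAE-vehicle against naive (left) and EAE-RIPK1inh-1 against EAE-vehicle (right). Filled points were called at a fold change over 1.5 and an unadjusted p under 0.05. *Irf1* and *Irf7* are called higher in both cell types on the left, *Irf5* and *Irf8* are called lower in microglia and higher in astrocytes, and no point on the right is filled.

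The cell types were then compared directly. In naive mice 7 of the 9 genes were called higher in microglia than in astrocytes, all but *Stat3* and *Stat5a*, against 10.0% of all genes. Among them 4, *Stat6*, *Irf1*, *Irf5* and *Irf8*, passed an adjusted p of 0.05, against 5.94%. The differences of log2 values were 6.98 for *Irf8* (SE 0.62, limma adjusted p = 1.29e-09) and 6.71 for *Irf5* (SE 0.79, limma adjusted p = 2.48e-07), with the lowest microglial value of each above its highest astrocyte value. In EAE-vehicle 5 genes were higher in microglia, *Stat2*, *Stat6*, *Irf1*, *Irf5* and *Irf8*, against 12.4% of all genes, and all but *Irf1* passed an adjusted p of 0.05, against 7.89%. The *Irf1* call was lost in 7 fits that left out a single library, with 1.20 without EAE-vehicle astrocytes 4, and the *Stat2* call in naive mice was lost without naive astrocytes 4, at 1.70. In EAE-vehicle the differences were 2.82 for *Irf8* (SE 0.51) and 3.35 for *Irf5* (SE 0.65). *Irf7* did not differ beyond its error, at 0.22 with a 95% interval of -1.34 to 1.77, and *Stat3* was at -0.64 with an interval of -1.36 to 0.08.

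The effect of EAE was also compared between the cell types. For *Irf8* the interaction term was -4.16 (SE 0.80, limma adjusted p = 0.00647), with -0.76 in microglia and 3.40 in astrocytes. Of the naive astrocyte libraries 2 of 4 had signal of *Irf8*, so the size of the term depends on assigned values. The part of other cells in it was not tested. Both cell types may come from the same mice, and the model treats the libraries as independent. With the same-numbered libraries of a treatment in both cell types as a block, the term was again -4.16, with a limma adjusted p of 0.0516. For this term 3 genes were called lower, *Stat3* at -1.24, *Irf5* at -3.36 and *Irf8*, against 3.71% of all genes, and *Irf8* alone passed an adjusted p of 0.05, against 0.378%. After each library was centred on its own median, which lowered every interaction value by 0.13, the genes called for the term were 1231 higher and 1550 lower in place of 1537 and 1149. *Irf1* at -2.01 and *Irf7* at -2.17 were not called, although both were called higher in EAE in each cell type. Without the libraries of under 9000 genes with signal, *Irf1*, *Irf7* and *Irf9* were called as well, at -3.14, -3.38 and -3.73, while *Stat3* was not.

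The 9 genes were also ordered by group mean (± SD over the 4, 6 or 5 libraries). In naive microglia it ran *Irf8*, *Irf5*, *Irf9*, *Stat3*, *Stat6*, *Irf1*, *Stat2*, *Irf7*, *Stat5a*, from 7.84 ± 0.40 to 2.42 ± 0.82, and only *Irf5* over *Irf9* and *Irf7* over *Stat5a* differed by more than the larger SD of the pair. In EAE-vehicle microglia *Irf1* (6.85 ± 0.30) and *Irf7* (6.16 ± 0.59) stood directly behind *Irf8* (7.07 ± 0.27), and the steps from *Irf1* to *Irf7*, from *Stat3* to *Stat6* and from *Stat6* to *Stat5a* exceeded that SD. With RIPK1inh-1 the order again opened with *Irf8* (7.72 ± 0.80) and *Irf1* (7.34 ± 0.85), and the step from *Stat6* to *Stat5a* alone exceeded the SD. Naive astrocytes had *Stat3* first, at 4.93 ± 0.24, followed by *Irf9* at 2.94 ± 1.74, and no later step exceeded the SD. In EAE-vehicle and RIPK1inh-1 astrocytes *Irf7* headed the order, and none of the steps between neighbours exceeded the SD. As a share of protein-coding genes with a lower group mean, *Irf7* moved from 71.6% in naive to 93.9% in EAE-vehicle microglia and from 41.5% to 94.0% in astrocytes, and *Irf8* from 98.5% to 97.0% and from 41.1% to 84.9%. In naive astrocytes *Irf7* had signal in 1 of 4 libraries and *Irf8* in 2 of 4. Their shares there, and the lower part of the order in naive astrocytes, rest partly on values that the normalization assigned to genes without signal.

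Other genes of the pathway were counted in lists. Among 20 interferon-stimulated targets, 18 were called higher and 0 lower in EAE-vehicle microglia (median log2 difference 2.88), and 13 higher and 0 lower in astrocytes (median 3.53). Among 13 type II interferon targets the counts were 13 and 11 higher and 0 lower, with medians of 3.51 and 5.66. The chemokine gene *Cxcl10* rose from 1.72 (0.05 to 3.66) to 7.28 ± 0.38 in microglia, and in astrocytes it ran from 0.11 to 0.38 in naive and from 3.32 to 8.24 in EAE-vehicle. The GTPase gene *Gbp2* was at 0.12 to 2.59 in naive and at 9.26 to 10.06 in EAE-vehicle microglia. Of 7 other STAT and IRF family genes, 1 was called higher and 1 lower in microglia, and 1 higher in astrocytes. The median of all genes tested was -0.02 in microglia and 0.03 in astrocytes. Beside the counts of this and the next paragraph, 6.13% of all genes tested were called higher and 5.86% lower in microglia. In astrocytes 2.69% were called higher, and 1233 of 30718 genes lower. No list was tested against these shares.

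Among 11 receptors and kinases, 1 was called higher and 4 lower in EAE-vehicle microglia and none in astrocytes. *Ifngr1*, a subunit of the type II interferon receptor, fell by 2.00 on the log2 scale in microglia (9.70 ± 0.25 in naive, 7.70 ± 0.45 in EAE-vehicle, limma adjusted p = 0.00179), and *Il6st*, the shared receptor of the IL-6 family, fell by 2.36 (adjusted p = 0.00285). *Ifnar1*, *Jak1* and *Tyk2* were not called in microglia (0.03, -0.63 and -0.32) or in astrocytes (-0.44, -1.05 and 0.79). Of 10 feedback inhibitors, 3 were called higher and 1 lower in microglia, and 2 higher in astrocytes. *Socs1*, which blocks JAK kinases, was at 0 to 2.35 in naive and at 3.30 to 5.30 in EAE-vehicle microglia (difference 2.98, limma adjusted p = 0.0154), and *Socs3* was not called (0.51). Of 14 sensors and kinases that lie upstream of IRFs, 2 were called higher and 2 lower in microglia and 2 higher and 1 lower in astrocytes. *Ifih1*, a sensor of double-stranded RNA, rose by 1.74 in microglia and by 2.29 in astrocytes, and *Tlr3* fell by 3.87 in astrocytes.

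With RIPK1inh-1 against vehicle, no gene of these lists was called in microglia other than the receptor subunit gene *Ifnar2* (0.79) and *Tyk2* (0.88) among the receptors and kinases. In astrocytes *Isg15* (-1.19), *Gbp2* (-1.01) and *Gbp3* (-1.65) were called lower and *Ciita*, the activator of MHC class II genes, was called higher (1.48), while 1 of the 7 other STAT and IRF family genes was called lower. The limma adjusted p was 0.930 for *Ifnar2* and *Tyk2* and 0.840 for the 4 targets in astrocytes. Over all genes tested, 1.76% in microglia and 3.02% in astrocytes were called in either direction.

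**Figure D4:**
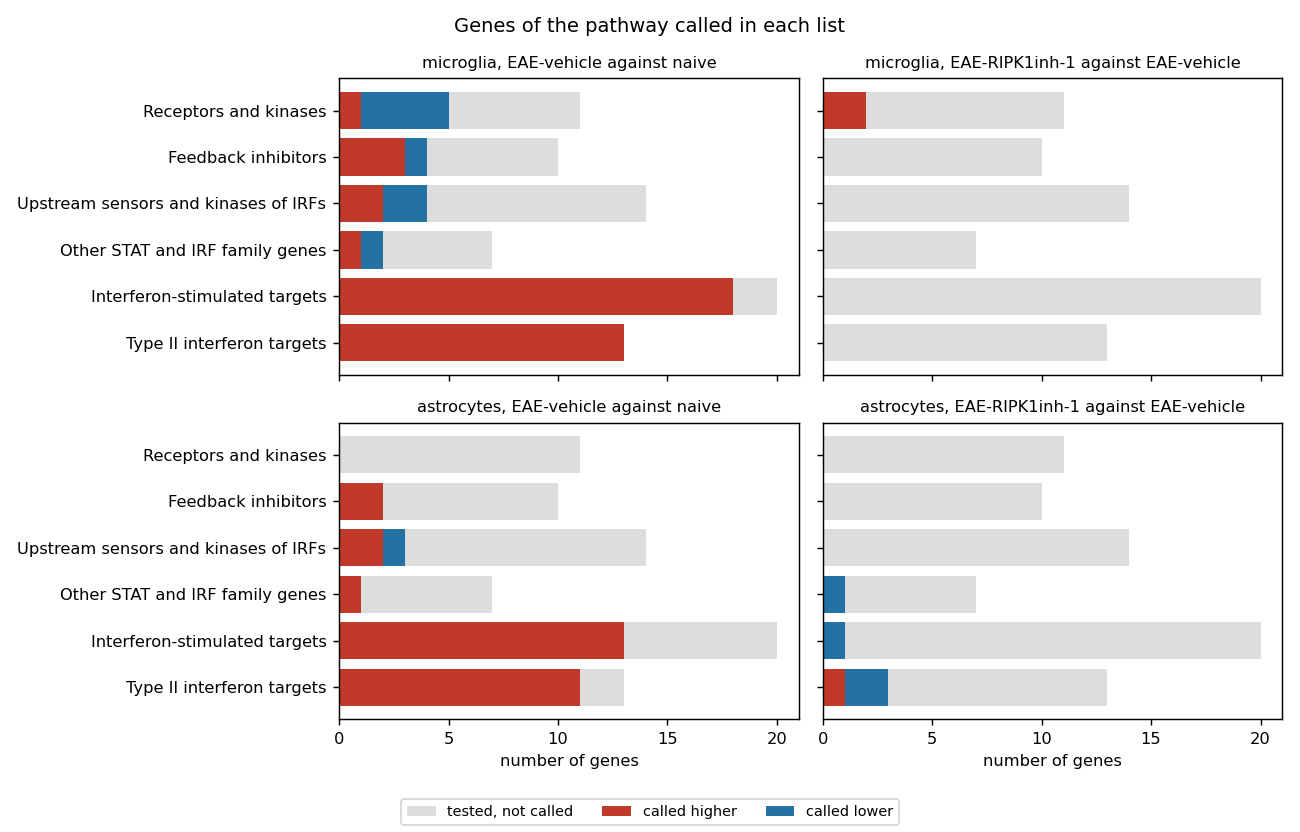
Number of genes (horizontal axis) called higher (red), called lower (blue) or tested and not called (grey) in 6 lists of the interferon and cytokine pathway, for both cell types and for EAE-vehicle against naive and EAE-RIPK1inh-1 against EAE-vehicle. The red bars of the target lists reach 18 of 20 and 13 of 13 genes in microglia and 13 of 20 and 11 of 13 in astrocytes on the left, and at most 3 genes of a list are called on the right.

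For each of the 9 genes, the protein-coding genes with the most similar profile over the 15 libraries of a cell type were ranked by Pearson r among those with a mean of at least 3. The 15 points share groups and quantile normalization, so r describes these libraries and was not tested. In microglia *Irf7* was closest to *H2-D1* (r = 0.967), *Scpep1* (0.966) and *Lgals3bp* (0.958), *Irf1* to *Apobec3* (0.963), *Psme1* (0.962) and *Nono* (0.957), *Irf8* to *Il10ra* (0.938), *Arhgef2* (0.924) and *Unc93b1* (0.922), and *Irf5* to *Ap1b1* (0.969) and *Laptm5* (0.969). In astrocytes *Irf1* was closest to the interferon-inducible GTPase genes *Tgtp1* (0.951) and *Ifi47* (0.944) and to *Ltb* (0.933), *Irf8* to *Frmd8* (0.893), and *Stat3* to *Rbm3* (0.855). The measure was not computed for *Stat5a*, *Stat6*, *Irf5* and *Irf7* in astrocytes, which had signal in fewer than 12 libraries.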

How the data were processed

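Sorted spinal cord microglia and astrocytes were sequenced, each as 15 libraries. The authors aligned and quantified the reads in OmicSoft Array Studio and deposited log2 FPKM values, which are quantile-normalized, since all 30 libraries hold the same sorted values. The aligner, the annotation release and the offset added before the logarithm are not given in the sources used here. Read counts cannot be had from such values, so sequencing depth is unknown here, and the number of genes with signal stands in for it. Genes without signal in a library were recognised by values that follow their order in the table. Every library was assigned to its group from the labels.

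The values as deposited went into limma 3.58.1 (lmFit, then eBayes with a trend, run under R 4.3.3), unpaired. A fit held the 15 libraries of a cell type, and a fit of all 30 libraries served to compare cell types. Exact permutation tests enumerated every assignment of the libraries to the compared groups, in Python 3.11.15. The fits were tested on simulated data. The study's methods name a paired test, but the labels pair no mice across groups, and they do not say whether libraries of the same number in both cell types came from 1 mouse. The study describes its replicates as individual mice, in equal numbers for both cell types, so libraries of different cell types may share mice. Alternatives covered filters, scaling, library weights, the variance trend, a replicate block and leaving out libraries. The block was the replicate number in fits of a single cell type. In fits of all 30 libraries it was the treatment together with the replicate number. Sequences and motif searches used RefSeq promoters (GRCm38.p6). Gene positions in the deposited annotation matched GENCODE on GRCm38. The 9 genes, the pathway and marker lists, and the naming rule (all 9 genes, the 2 largest rises and falls among called genes of a list, and fixed receptor, kinase and inhibitor genes) were chosen with earlier results of these data known. Some genes that the rule covers are not reported by name here, and counts over lists include them.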

Additional observations from a re-analysis of the deposited data

Results flagged for a closer look

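In 6 of the 54 groups of libraries examined for the 9 genes, the highest or lowest value lay apart from the rest of its group by Dixon's criterion, and all 6 were groups of astrocyte libraries. Chance alone meets the criterion in about 1 of 20 groups of normally spread values, a rate that does not apply where signal is set against values without signal, as in 5 of the 6. *Stat6* was at 4.33 in naive astrocytes 4, where the other naive values were at most 0.51. *Irf7* was at 2.44 in naive astrocytes 1, where the other 3 had no signal. *Irf8* was at 2.56 in naive astrocytes 2, a library with 8815 genes with signal, where the others were at most 0.39. EAE-vehicle astrocytes 1, the library with 6728 genes with signal, had *Irf7* at 1.02 and *Irf9* at 0, both without signal, where the lowest of the other 5 libraries were 6.17 and 5.24. *Irf1* was at 1.17 in EAE-RIPK1inh-1 astrocytes 1, where the next lowest value was 5.17.

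The effects of EAE on *Irf8* in the 2 cell types were compared in 1 model. The interaction term was -4.16 log2 units for microglia minus astrocytes (limma adjusted p = 0.00647, and 0.0516 with the replicate block), with all 4 naive astrocyte values below all 6 EAE-vehicle values, and with 3 of 4 naive microglial values above all 6 EAE-vehicle values. *Irf8* had signal in 2 of 4 naive astrocyte libraries, and the part of other cells in this term was not tested.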

How the results depend on the processing

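Of 2754 values of the 9 genes under an alternative, 2567 kept direction and call, 49 lost a call, 45 gained one, 93 that were not called changed sign, and 0 called values changed sign. In what follows each value is the number of the 9 genes, and the cause of a change was not tested.

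For EAE-vehicle against naive microglia, the 2 genes past an adjusted p of 0.05 became 1 with library quality weights, without a variance trend, with the number of detected genes as a covariate, without the libraries of under 9000 genes with signal and with only the 2 groups in the fit. Leaving out single libraries gave 3 to 5 called genes, in place of 5, and 1 to 2 by adjusted p. For RIPK1inh-1 against vehicle microglia, the 0 called genes became 1 with genes of a mean of at least 1, 5 with quality weights, and 0 to 3 when single libraries were left out, with 3 without RIPK1inh-1 microglia 2. For RIPK1inh-1 against naive microglia, the 2 genes by adjusted p became 1 with only the 2 groups in the fit and 1 to 2 when single libraries were left out.

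For EAE-vehicle against naive astrocytes, the 2 genes by adjusted p became 1 on log2 of the linear value plus 1, with genes without signal set to 0, without a variance trend and with the detected genes as a covariate, and 4 with quality weights. Leaving out single libraries gave 3 to 6 called genes and 0 to 2 by adjusted p. For RIPK1inh-1 against vehicle astrocytes, the 0 called genes became 1 with quality weights and 1 without the libraries of under 9000 genes, and 0 to 1 when single libraries were left out. For RIPK1inh-1 against naive astrocytes, the 0 genes by adjusted p became 2 with genes of a mean of at least 1, 2 with quality weights, 2 without the libraries of under 9000 genes, 1 with only the 2 groups in the fit, and 0 to 1 when single libraries were left out. Between naive cell types, 4 by adjusted p became 7 with genes of a mean of at least 1. For the interaction of EAE and cell type, 3 called became 5 with quality weights and 5 without the libraries of under 9000 genes, 1 by adjusted p became 3 under each of these, and leaving out single libraries gave 2 to 5 and 1 to 2. For the interaction of RIPK1inh-1 and cell type, 1 called became 2 with quality weights and 1 to 2 when single libraries were left out.

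With the replicate block, 3 genes in place of 5 were called in EAE-vehicle microglia, and the genes past an adjusted p of 0.05 became 1 in microglia for both EAE groups against naive, 0 in EAE-vehicle astrocytes and 0 for the interaction of EAE and cell type. The call of *Irf5* in EAE-vehicle astrocytes was lost, at 1.43. The numbers are not taken to pair the samples. Same-numbered libraries correlated in their deviations from the group means at -0.03 to 0.13 between cell types (1 of 15 pairs over 0.1), at -0.13 to 0.31 within microglia (6 of 13) and at -0.13 to 0.09 within astrocytes (0 of 13).

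With quality weights, the genes called over the whole table were 2730 in place of 511 for RIPK1inh-1 against vehicle microglia (953 without RIPK1inh-1 microglia 2), 3698 in place of 2060 for EAE-vehicle against naive astrocytes, 3152 in place of 1421 for RIPK1inh-1 against naive astrocytes, and 1604 in place of 976 for the interaction of RIPK1inh-1, which was 557 with genes of a mean of at least 1. Centring each library on its median shifted every difference between naive cell types by 0.10 and every value of the EAE interaction by -0.13, and all other comparisons by less.

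In microglia, the call of *Stat2* in EAE-vehicle was lost without naive microglia 1 or 2, at 0.70 and 1.23. In astrocytes, the calls of *Stat3* and *Irf5* in EAE-vehicle were each lost without EAE-vehicle astrocytes 5, at 0.77 and 1.82. The groups of 4 to 6 libraries, the unknown depth and the values assigned to genes without signal limit what can be said of *Stat5a*, *Stat6* and *Irf5* in astrocytes.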
